A study of Homo sapiens with 9 samples.

Results

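The fibroblast growth factor (FGF) receptors and ligands were followed as a set of 10 listed genes in OVCAR3, a cell line derived from a high-grade serous ovarian carcinoma. The 10 genes were picked by name from the 60660 identifiers of the count matrix, and the rule used no threshold on measured values. They were the receptors *FGFR1*, *FGFR2*, *FGFR3*, *FGFR4* and *FGFRL1*, the ligands *FGF1*, *FGF2*, *FGF9* and *FGF18*, and the carrier protein gene *FGFBP1*. All 10 were found, and 9 passed the filter on low counts that left 17794 genes for testing. *FGF1* did not pass it.

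RNA-seq was available for 3 groups of 3 libraries each. Control cells carried the plasmid pCpGfree-vitroHLacZ according to the study's methods. Cells that overexpressed *CTCFL* (CTCFL-OE) were transiently transfected with 2 µg of pCpGfree-vitroHBORIS, which holds the *CTCFL* open reading frame, and were collected after 48 h. RNA of the knockdown cells (CTCFL-KD) came from knockdown experiments that had been published earlier, whereas the extraction described in the methods covers CTCFL-OE and Control. CTCFL, also called BORIS, is a paralog of the DNA-binding factor CTCF that is normally restricted to the germ line. Each biological replicate combined the material of 3 technical replicates. All libraries came from 1 cell line, and the 3 Control libraries served for both conditions, so that knockdown and the separate origin of its RNA cannot be told apart. The study asked which genes respond to the amount of CTCFL in ovarian cancer cells.

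Secreted FGFs bind receptor tyrosine kinases at the cell surface together with heparan sulfate, and the paired receptors then phosphorylate adaptors that feed the RAS-MAPK, PI3K-Akt and PLCγ branches. *FGFR1* to *FGFR4* encode the kinase receptors, and *FGFRL1* encodes a related receptor that lacks the kinase domain. In epithelial tissues such as the ovarian surface and the Müllerian duct derivatives, FGFs act between epithelium and stroma. Alternative splicing of *FGFR1*, *FGFR2* and *FGFR3* gives epithelial and mesenchymal forms with different ligand preferences, which gene-level counts cannot separate.

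Libraries held 14332622 to 24490080 counts on genes. *CTCFL* itself had 6, 9 and 10 counts in the Control libraries, 36, 34 and 72 counts after overexpression but 0, 1 and 0 counts after knockdown, so the order of the labels was kept in every library. A count of 0 allowed up to 3 counts, which corresponded to 0.117 to 0.271 CPM (counts scaled to library size), and this covers counting error only. The share of mitochondrial counts was 6.16 to 6.52% in Control, 7.40, 12.4 and 14.9% in CTCFL-OE replicates 1 to 3, and between 7.80 and 11.8% in CTCFL-KD. The library CTCFL-KD replicate 1 stood apart. Against the other 2 CTCFL-KD libraries its median log2 ratio ran from 0.65 in the quintile of shortest genes to -0.54 in that of the longest. The epithelial and ovarian marker genes *PAX8*, *WT1*, *MUC16*, *EPCAM*, *KRT7*, *KRT8*, *KRT18*, *CDH1* and *MSLN* were detected in every library, at a summed 5290 to 5410 CPM in Control, 4610 to 5000 CPM in CTCFL-OE, but 9080 to 14800 CPM in CTCFL-KD. Against Control, 368 differentially expressed genes (DEGs) were called with overexpression, whereas knockdown gave 4132, with an absolute log2 fold change above 1 and an adjusted p below 0.1 or 0.05, respectively, the thresholds of the study. The 368 ranged from 44 without Control replicate 3 to 1184 without CTCFL-OE replicate 1, and 4 other libraries of these groups and CTCFL-KD replicate 1 also moved it by over 1.5 times.

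The study searched promoters of responsive genes for motifs of CTCFL, so the promoter windows of the set were read from RefSeq, from 250 bases before to 50 bases after the annotated start. *FGFR1* was left out of this reading and *FGF9* had no entry, so windows were read for 8 members. Of these, 5 held AGGGGGC, the end of the CTCF core, on either strand, against 14.37% of 35116 promoters and 18.95% of the 17331 promoters of tested genes. CCCTC, the letters for which CTCF was named, was found in 8 of 8, against 71.2% of all promoters and 78.78% of those of tested genes. Its complement GAGGG can overlap AGGGGGC. The windows of *FGFR3*, *FGFR2*, *FGFR4*, *FGF18* and *FGF2* were 74.7 to 86.3% GC against a median of 58.67% over all promoters. Those of *FGF1* and *FGFBP1* were 44.3% and 42.0% GC, and that of *FGFRL1* was 68.3% GC. AGGGGGC was not in the windows of *FGFR2*, *FGF1* and *FGFBP1*. The parts that lie before annotated exons are shown for *FGFR2*, *FGFR4* and *FGF2*, which were DEGs in CTCFL-KD, and for *FGF18*, the ligand with the highest level. Capitals mark matches to AGGGGGC or CCCTC on either strand, and the sequences are from GRCh38.p14, 5′ to 3′ on the strand of the gene.
FGFR2 (chr10:121598459-121598694, minus strand): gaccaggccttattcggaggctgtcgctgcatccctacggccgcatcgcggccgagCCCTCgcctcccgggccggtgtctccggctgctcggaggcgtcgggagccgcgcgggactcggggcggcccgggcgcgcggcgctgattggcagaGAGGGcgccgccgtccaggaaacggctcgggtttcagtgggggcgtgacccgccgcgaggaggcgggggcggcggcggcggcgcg
FGFR4 (chr5:177086665-177086904, plus strand): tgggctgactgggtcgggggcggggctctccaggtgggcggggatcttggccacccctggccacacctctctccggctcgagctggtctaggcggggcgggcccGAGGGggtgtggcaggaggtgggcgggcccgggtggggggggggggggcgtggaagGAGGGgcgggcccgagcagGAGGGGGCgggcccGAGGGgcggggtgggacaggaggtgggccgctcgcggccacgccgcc
FGF2 (chr4:122826581-122826681, plus strand): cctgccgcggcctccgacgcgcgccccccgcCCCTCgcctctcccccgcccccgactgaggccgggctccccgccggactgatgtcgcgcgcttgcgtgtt
FGF18 (chr5:171419397-171419646, plus strand): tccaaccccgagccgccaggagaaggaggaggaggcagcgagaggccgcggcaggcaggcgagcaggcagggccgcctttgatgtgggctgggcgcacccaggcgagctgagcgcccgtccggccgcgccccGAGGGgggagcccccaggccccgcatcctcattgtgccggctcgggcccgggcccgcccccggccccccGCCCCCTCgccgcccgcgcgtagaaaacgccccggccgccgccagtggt
The stretch of *FGFR4* held the most CCCTC matches of the 4 sequences, each read as GAGGG. The single AGGGGGC of the *FGF2* window lies after the start and is not shown. A match of letters is a description of the window, and binding was not measured in these libraries.

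Among the kinase receptors, *FGFR1* was higher in both conditions than in Control, *FGFR2* and *FGFR4* rose in CTCFL-KD, and *FGFR3* passed no threshold in either. In CTCFL-OE, 1 of the 9 tested members was called higher and 0 lower, where 1.37% of all tested genes were called higher and 0.702% lower. Those genes were 243 higher and 125 lower, but 17 and 28, 25 and 36, and 18 and 26 without Control replicates 1, 2 and 3. In CTCFL-KD, 4 members were called higher and 1 lower, where 15.3% of tested genes were called higher and 7.94% lower. The libraries of the 2 groups did not overlap for 3 of the 9 members between CTCFL-OE and Control (37.1% of tested genes) and for 8 of the 9 between CTCFL-KD and Control (56.3% of tested genes).

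*FGFR1* (ENSG00000077782.21, GRCh38 chr8:38400215-38468834, minus strand) encodes the receptor that is best known from mesenchymal tissue and is amplified in a part of several carcinomas. It was measured at 69.5, 72.8 and 67.3 CPM in Control, at 121, 149 and 164 CPM in CTCFL-OE, and again higher than Control in CTCFL-KD at 153, 154 and 156 CPM. All 6 libraries with changed *CTCFL* lay above all 3 Control libraries, and the CTCFL-KD libraries lay closer to each other than the CTCFL-OE libraries did. The log2 fold change was 1.05 (SE 0.167, adjusted p = 0.0170) in CTCFL-OE and 1.14 (SE 0.168, adjusted p = 4.5e-04) in CTCFL-KD by the quasi-likelihood test of edgeR, Benjamini-Hochberg adjusted. *FGFR1* was thus the only member called in both comparisons. The call in CTCFL-OE was lost without any single Control library, at an adjusted p of 0.147, 0.130 and 0.158 without replicates 1, 2 and 3, and without CTCFL-OE replicate 3, where the log2 fold change was 0.95. With the trend of each library on gene length and GC content removed, it was 0.92 in CTCFL-OE, under the fold threshold. The call in CTCFL-KD was kept in 6 of 6 fits that left out a library of the compared groups. *LETM2* and 3 further annotated loci overlap *FGFR1*, and *LETM2* had only 0.722 to 2.77 CPM in any library.

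*FGFR2* (ENSG00000066468.23, chr10:121478332-121598458, minus strand), whose epithelial form binds FGF7 and FGF10 from stroma, had 58.1, 61.2 and 62.9 CPM in Control. It had 78.5, 102 and 146 CPM in CTCFL-OE, against 105, 135 and 129 CPM in CTCFL-KD. Neither condition overlapped Control. In CTCFL-OE the log2 difference was 0.84 (SE 0.225, 95% interval 0.348 to 1.34), with an adjusted p of 0.101 that missed the threshold, and *FGFR2* was called there without CTCFL-OE replicate 1, at 1.02. In CTCFL-KD it rose by a log2 fold change of 1.02 (SE 0.226, adjusted p = 0.00518), which lies at the fold threshold. The call in CTCFL-KD was lost without Control replicate 1 (0.98), without CTCFL-KD replicate 2 (0.96) and without CTCFL-KD replicate 3 (0.98). It was also lost by the fold threshold with DESeq2 on all 9 libraries (0.98) and without a filter on low counts (0.95).

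*FGFR4* (ENSG00000160867.15, chr5:177086905-177098144, plus strand) encodes the receptor through which FGF19 signals in the liver. Its Control libraries were 36.8, 35.3 and 35.9 CPM. The CTCFL-OE libraries spread from 32.9 CPM in replicate 1 over 54.8 CPM in replicate 2 to 79.6 CPM in replicate 3 and overlapped Control. In CTCFL-KD the values were 97.4, 63.8 and 65.0 CPM, all above Control, with a log2 fold change of 1.07 (SE 0.292, adjusted p = 0.0149). CTCFL-KD replicate 1 was the highest of all 9 libraries. Without it the log2 fold change was 0.84 and the call was lost, as it was without Control replicate 2 (adjusted p = 0.0544) and Control replicate 3 (adjusted p = 0.0525). With the trend of each library on gene length and GC content removed, the log2 fold change was 0.76.

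*FGFR3* (ENSG00000068078.20, chr4:1793293-1808872, plus strand), the receptor that restrains growth of cartilage, had 24.9, 22.5 and 26.0 CPM in Control, 18.3, 24.3 and 33.0 CPM in CTCFL-OE, against 20.0, 25.1 and 18.8 CPM in CTCFL-KD. The groups overlapped in every pairing. The 95% interval of the log2 difference from Control was -0.447 to 0.528 in CTCFL-OE and -0.688 to 0.292 in CTCFL-KD.

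*FGFRL1* (ENSG00000127418.15, chr4:1009936-1026898, plus strand), which binds FGFs without a kinase to pass the signal on, had 148, 130 and 146 CPM in Control. In CTCFL-OE it had 107, 119 and 185 CPM, on both sides of Control. In CTCFL-KD it had 90.6, 125 and 115 CPM, all below Control, but the log2 difference of -0.36 (SE 0.227, adjusted p = 0.234) did not pass the threshold.

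**Figure D1:**
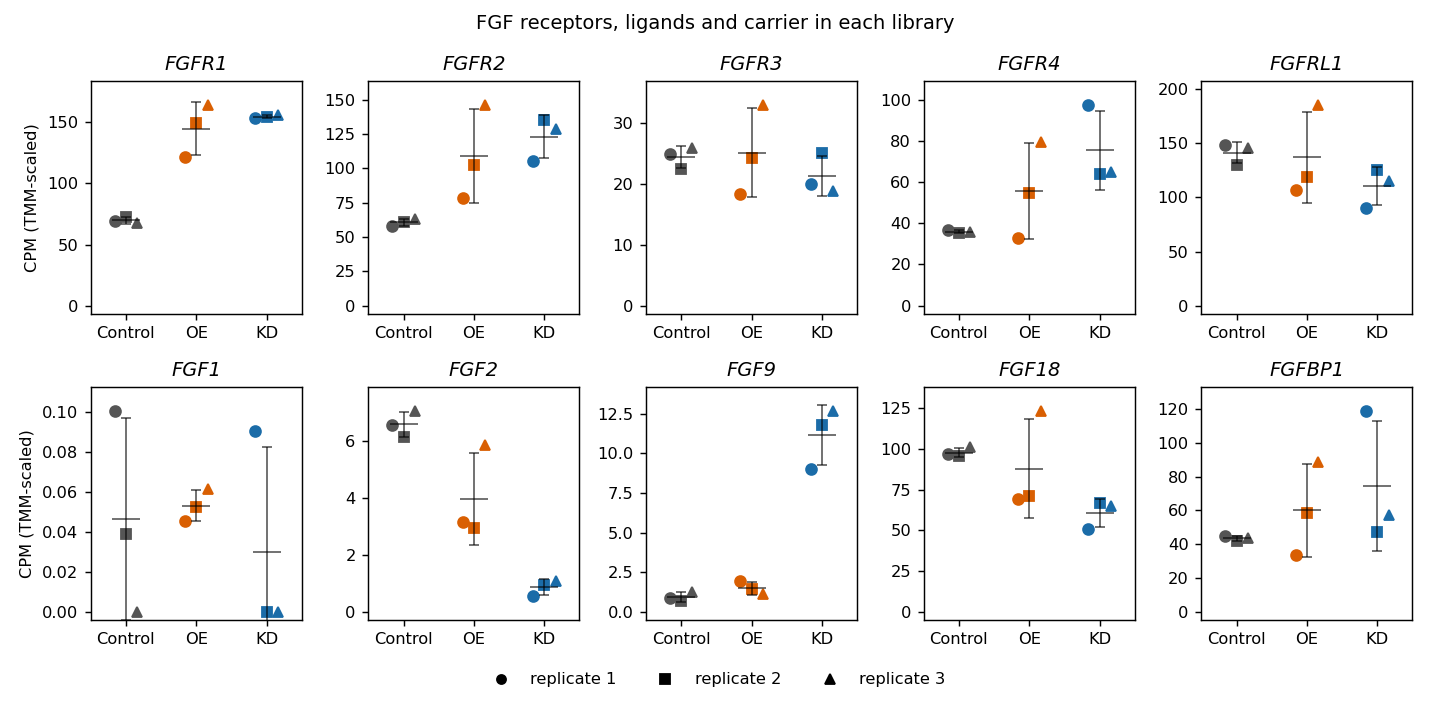
Each panel plots 1 of the 10 genes, with CPM on a linear axis for 3 libraries of Control, CTCFL-OE (OE) and CTCFL-KD (KD). Symbols give the replicate number and bars the mean ± SD of 3 libraries. *FGFR1* lies between 121 and 164 CPM in the 6 libraries with changed *CTCFL* and between 67.3 and 72.8 CPM in Control, and *FGF2* and *FGF9* separate CTCFL-KD from the rest in opposite directions.

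The summed level of the 4 kinase receptors was 191.0 ± 1.5 CPM (SD, n = 3) in Control, 334.8 ± 85.9 CPM in CTCFL-OE, against 374.2 ± 5.3 CPM in CTCFL-KD. Per kilobase of all annotated exons, *FGFR1* made up 20.3, 21.7 and 19.5% of the receptors' summed level in Control. The share was 32.3, 28.4 and 23.5% with overexpression, against 22.9, 25.9 and 27.2% with knockdown, so that its share was above Control in all 6 libraries. In CTCFL-OE the receptor sum was 251.0 CPM in replicate 1, 330.8 CPM in replicate 2 and 422.7 CPM in replicate 3, the order of the libraries' mitochondrial shares. Replicate 3 was the highest and replicate 1 the lowest CTCFL-OE library for 7 of the 9 tested members, and for 23.3% of all tested genes. The part of these library differences in the results was not tested.

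*FGF2* and *FGF9* had the largest fold changes of the set, both in CTCFL-KD, and no ligand passed the test in CTCFL-OE. *FGF2* (ENSG00000138685.17, chr4:122826682-122898236, plus strand), basic FGF, is a ligand of broad receptor range that leaves cells without a signal peptide. It had 131, 158 and 139 counts in Control, 69, 56 and 95 counts in CTCFL-OE, against 6, 16 and 20 counts in CTCFL-KD. These correspond to 6.56, 6.14 and 7.04 CPM in Control, to 3.15, 2.93 and 5.84 CPM in CTCFL-OE, but to only 0.541, 0.951 and 1.10 CPM in CTCFL-KD. The 3 groups did not overlap, with Control highest and CTCFL-KD lowest. With knockdown *FGF2* fell 7.33-fold, or by a log2 fold change of -2.87 (SE 0.339, adjusted p = 1.29e-04), and the call was kept in 6 of 6 fits without a library. In CTCFL-OE the log2 difference was -0.74 (SE 0.288, adjusted p = 0.219), which did not pass. Whether the counting used strand is not given in the sources used here, so reads of the 2 strands cannot be told apart. *NUDT6*, which overlaps *FGF2* on the opposite strand, had 90, 99 and 67 counts in Control and 57, 95 and 72 counts in CTCFL-KD, with a log2 difference of 0.32 (adjusted p = 0.267).

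*FGF9* (ENSG00000102678.7, chr13:21671073-21704498, plus strand) encodes a secreted ligand with roles in gonad development and signals through mesenchymal receptor forms and *FGFR3*. Its level was low in Control, with 17, 18 and 25 counts or 0.851, 0.699 and 1.27 CPM. In CTCFL-OE it had 42, 28 and 18 counts, or 1.92, 1.46 and 1.11 CPM, which overlapped Control. In CTCFL-KD it had 100, 198 and 231 counts, or 9.02, 11.8 and 12.7 CPM, far above every other library. *FGF9* rose 11.96-fold with knockdown, or by a log2 fold change of 3.58 (SE 0.295, adjusted p = 1.4e-05), and this call was also kept in 6 of 6 fits. The log2 difference in CTCFL-OE was 0.70 (adjusted p = 0.276).

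*FGF18* (ENSG00000156427.8, chr5:171419647-171457626, plus strand), a secreted ligand of the FGF8 subfamily, had the highest level per length of the ligands. It had 97.0, 95.6 and 101 CPM in Control, 69.6, 71.1 and 123 CPM in CTCFL-OE, against 50.9, 66.7 and 64.8 CPM in CTCFL-KD. The CTCFL-KD libraries lay below all Control libraries and also below all CTCFL-OE libraries. In CTCFL-KD the log2 difference was -0.69 (SE 0.233, adjusted p = 0.0384), which passed the p threshold but not the fold threshold. The adjusted p was 0.0543 to 0.101 in the 6 fits that left out a library of these groups, so the passing of the p threshold rests on all 6 libraries.

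*FGF1* (ENSG00000113578.18, chr5:142592178-142698070, minus strand), acidic FGF and a ligand of all kinase receptors, had 2, 1 and 0 counts in Control, 1 in each CTCFL-OE library and 1, 0 and 0 in CTCFL-KD. All 9 libraries were at or under the floor of 3 counts, so that no fold was computed and a difference was not detectable at this depth. The other 14 secreted ligands listed had too few counts to be tested. The highest counts among them were 17 for *FGF20* and 14 for *FGF17*, in CTCFL-OE replicate 3 and replicate 2, and *FGF3*, *FGF6*, *FGF10*, *FGF16* and *FGF23* were at 0 in every library. *KL* and *KLB*, the co-receptors of the hormone-like FGFs, had at most 6 and 9 counts and were not tested.

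*FGFBP1* (ENSG00000137440.5, chr4:15935577-15938740, minus strand) encodes a carrier that releases FGFs from the matrix. It had 45.0, 42.1 and 43.5 CPM in Control, 33.6, 58.2 and 88.5 CPM in CTCFL-OE, against 119, 47.5 and 57.2 CPM in CTCFL-KD. The CTCFL-KD libraries lay above Control, with replicate 1 far from the other 2, and the log2 difference of 0.77 (SE 0.378, adjusted p = 0.129) did not pass. Its log2 ratio of CTCFL-KD replicate 1 to the mean of the other 2 was 1.17, while that of *FGF18*, which is in the same quintile of exon length, was -0.37. Without that library the log2 difference in CTCFL-KD was 0.27.

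**Figure D2:**
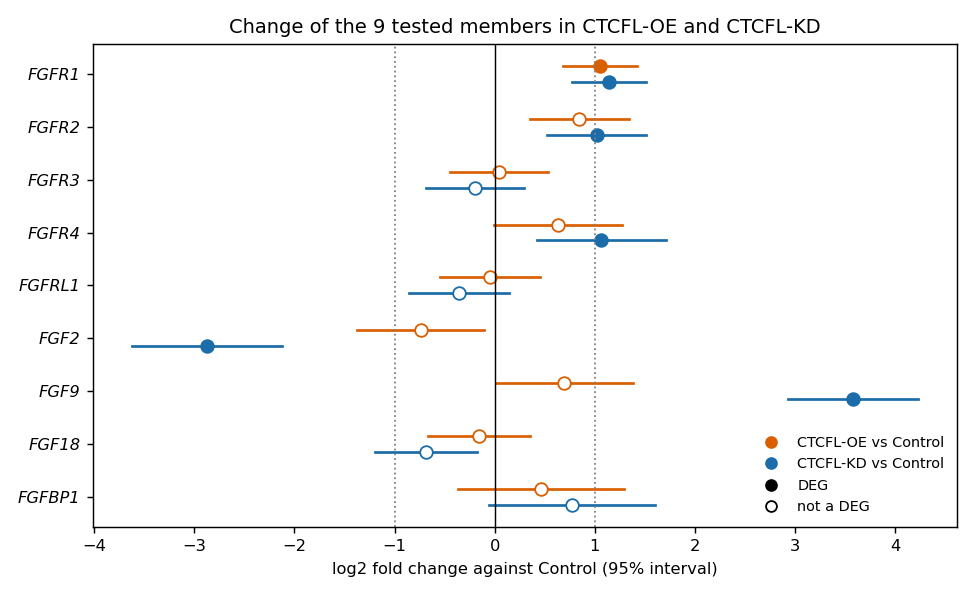
The log2 fold change against Control is plotted for the 9 tested genes in CTCFL-OE and CTCFL-KD, with lines for the 95% interval of edgeR's fit, dotted lines at the fold threshold and filled symbols for DEGs. The 2 estimates of *FGFR1* (1.05 and 1.14) nearly coincide, whereas *FGF2* (-0.74 and -2.87) and *FGF9* (0.70 and 3.58) lie apart.

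The direct comparison of CTCFL-KD with CTCFL-OE tests whether a member changed differently under both conditions, since the shared Control libraries drop out. Over all tested genes, 15.3% were higher and 11.5% lower in CTCFL-KD than in CTCFL-OE at an adjusted p below 0.05. Those genes were 2723 higher and 2048 lower, but 1660 and 1008 in a fit of the 2 groups compared. Without CTCFL-KD replicate 1 they were 3856 and 3441. Of the members, *FGF9* was higher, by a log2 difference of 2.88 (SE 0.282, adjusted p = 6.0e-05), and *FGF2* was lower, by -2.14 (SE 0.344, adjusted p = 0.00121). The other 7 did not pass. For *FGFR1* the interval of the difference was -0.271 to 0.456, for *FGFR2* -0.316 to 0.667 and for *FGFR4* -0.203 to 1.07. *FGF18* was lower in CTCFL-KD without overlap, and its log2 difference of -0.53 had an adjusted p of 0.112.

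Levels were compared between the 9 tested members per kilobase of all annotated exons (RPKM, from TMM-scaled library sizes). In Control *FGF18* led with 49.0 ± 1.40 RPKM (SD, n = 3), followed by *FGFRL1* with 32.6 ± 2.23 RPKM and *FGFBP1* with 32.2 ± 1.06 RPKM, which did not differ beyond their spread. *FGFR4* had 7.48 ± 0.155 RPKM, *FGFR3* 5.05 ± 0.369 RPKM, *FGFR1* 4.06 ± 0.163 RPKM and *FGFR2* 3.23 ± 0.131 RPKM. *FGF2* followed with 0.968 ± 0.0662 RPKM and *FGF9* with 0.194 ± 0.0605 RPKM. The order of the receptors depends on the length used. Per kilobase of the longest transcript, *FGFR1* had 11.2 and *FGFR4* 11.6 RPKM in Control, ahead of *FGFR2* with 8.72 and *FGFR3* with 5.68 RPKM.

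In CTCFL-KD the order per kilobase of exons was *FGFBP1* with 55.1 ± 28.5 RPKM, *FGF18* with 30.4 ± 4.32 RPKM and *FGFRL1* with 25.4 ± 4.08 RPKM, whose spreads overlapped. *FGFR4* followed with 15.7 ± 3.97 RPKM, *FGFR1* with 8.98 ± 0.0751 RPKM, *FGFR2* with 6.54 ± 0.836 RPKM and *FGFR3* with 4.40 ± 0.685 RPKM. *FGFR3*, ahead of *FGFR1* and *FGFR2* in Control on this scale, was thus behind both. In CTCFL-OE the means of the 9 tested members ran from 44.5 ± 20.4 RPKM for *FGFBP1* and 44.01 ± 15.3 RPKM for *FGF18* to 0.308 ± 0.0836 RPKM for *FGF9*, and the spreads of *FGFR2* (5.79 ± 1.82 RPKM) and *FGFR3* (5.20 ± 1.53 RPKM) overlapped.

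**Figure D3:**
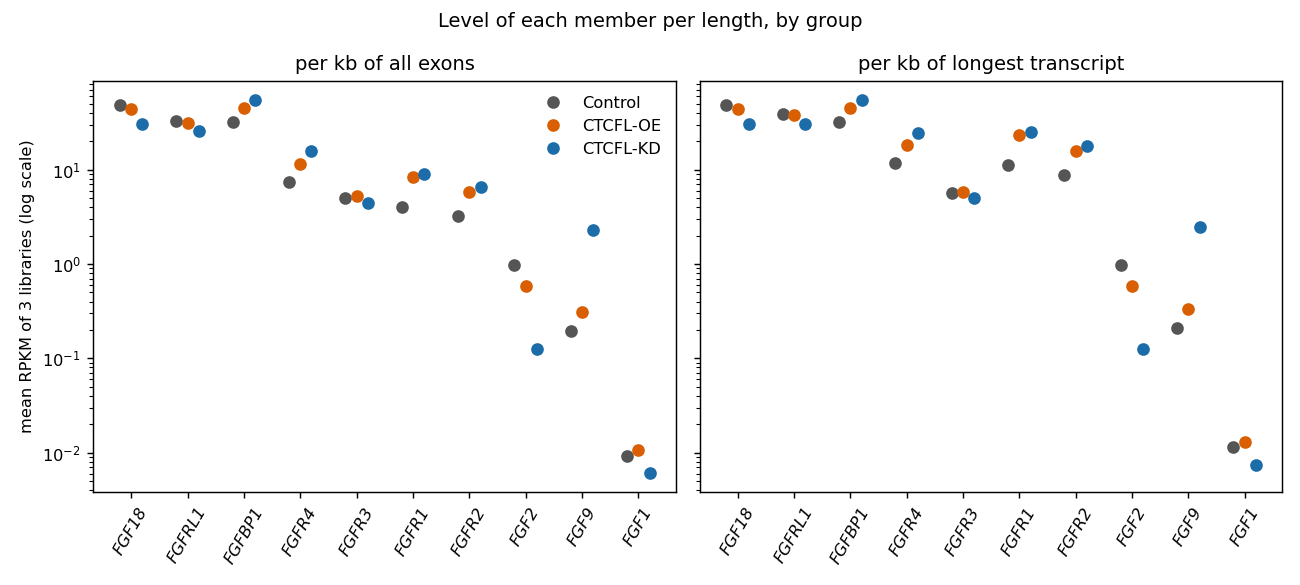
Mean RPKM of 3 libraries is plotted for each gene and group on a log axis, per kilobase of all exons on the left and per kilobase of the longest transcript on the right. *FGF18*, *FGFRL1* and *FGFBP1* are highest in every group, and *FGF9* and *FGF2* change places between Control (0.194 and 0.968) and CTCFL-KD (2.30 and 0.127) on the left.

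*FGF18* made up 97.5 to 97.8% of the summed RPKM of the 4 ligands in Control, 97.6 to 98.2% in CTCFL-OE, but 92.1 to 92.9% in CTCFL-KD. Below it the order of the minor ligands turned over. *FGF2* was 3.97 to 6.26 times *FGF9* per length in Control and 1.17 to 3.76 times in CTCFL-OE, whereas in CTCFL-KD *FGF9* was 16.2 to 23.4 times *FGF2*.

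Beyond the members, 86 genes of the pathway were listed by role, and 59 of them were tested. In CTCFL-OE 0 were called higher and 1 lower, and their median log2 fold change was 0.075 against -0.010 over all tested genes. In CTCFL-KD 17 were called higher and 3 lower, with a median of 0.547 against 0.077 over all tested genes. Over all tested genes, 15.3% were called higher and 7.94% lower in CTCFL-KD, and the counts of called genes in each list below stand against these shares.

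Heparan sulfate proteoglycans present FGFs to their receptors. Of 12 tested core protein genes, 5 rose in CTCFL-KD (*SDC1*, *GPC1*, *GPC2*, *GPC3* and *GPC6*) and 0 fell, against 15.3% and 7.94% of all tested genes. *GPC3*, a glypican of fetal tissue, went from 1.25, 1.36 and 0.557 CPM in Control to 7.85, 5.53 and 5.86 CPM, a log2 fold change of 2.57 (SE 0.318, adjusted p = 1.78e-04). *SDC1*, the main syndecan of epithelia, went from 62.0, 58.9 and 68.9 CPM to 327, 211 and 201 CPM, a log2 fold change of 1.96 (SE 0.279, adjusted p = 4.09e-04). Neither gene's libraries overlapped between CTCFL-KD and Control. No core protein gene was called in CTCFL-OE, where *SDC1* had 78.2, 110 and 157 CPM (log2 difference 0.86, adjusted p = 0.147). Without CTCFL-OE replicate 1 *SDC1* was called there, at 1.07 (adjusted p = 0.0440).

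Of 24 genes for enzymes that build or trim heparan sulfate, 16 were tested, and 6 rose and 0 fell in CTCFL-KD, against the same shares of all tested genes. These were the chain polymerases and related transferases *EXT1*, *EXT2*, *EXTL2* and *EXTL3*, the 3-O-sulfotransferase *HS3ST5* and the 6-O-sulfatase *SULF1*. *SULF1*, which removes 6-O-sulfates used by the FGF receptor complex, had 4.76, 4.62 and 4.71 CPM in Control, 2.46, 2.46 and 3.01 CPM in CTCFL-OE, against 15.4, 22.7 and 25.3 CPM in CTCFL-KD. It rose by a log2 fold change of 2.17 (SE 0.214, adjusted p = 3.9e-05) in CTCFL-KD, and its log2 difference in CTCFL-OE was -0.83 (adjusted p = 0.101). *HS3ST5* rested on low counts, with 2, 8 and 1 in Control and 24, 36 and 40 in CTCFL-KD (log2 fold change 3.66, SE 0.531, adjusted p = 4.51e-04), and without Control replicate 2 the log2 fold change was 4.71.

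Among 10 adaptor genes *PTPN11*, which encodes the phosphatase SHP2, was the only one called against Control, in CTCFL-KD. It has processed pseudogenes, so its counts are uncertain where reads align to several places. It had 304, 315 and 337 CPM in Control and 72.7, 166 and 169 CPM in CTCFL-KD, for a log2 change of -1.23 (SE 0.284, adjusted p = 0.00640). Replicate 1 was the lowest, and without it the log2 difference was -0.93 and the call was lost.

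Of 14 feedback regulators and modulators, 4 rose and 2 fell in CTCFL-KD, where 15.3% and 7.94% of all tested genes did. *ETV4*, a transcription factor of the ETS family induced by FGF signalling, was the only listed gene outside the members called in CTCFL-OE. It had 42.1, 39.6 and 43.2 CPM in Control, 18.9, 20.4 and 19.4 CPM in CTCFL-OE, against 18.8, 10.7 and 9.59 CPM in CTCFL-KD. All 6 libraries lay below Control, with a log2 fold change of -1.09 (SE 0.232, adjusted p = 0.0547) in CTCFL-OE and -1.69 (SE 0.238, adjusted p = 3.88e-04) in CTCFL-KD. In CTCFL-OE the call was lost in 5 of 6 fits that left out a library, at an adjusted p of up to 0.254, and was kept only without CTCFL-OE replicate 1.

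*DUSP6*, the ERK phosphatase that is induced by ERK, had 8.06, 8.55 and 10.3 CPM in Control and 3.97, 4.34 and 3.78 CPM in CTCFL-KD (log2 fold change -1.15, SE 0.306, adjusted p = 0.0129). Without Control replicate 3 its adjusted p was 0.0502. *IL17RD*, which encodes the FGF antagonist SEF, went the other way, from 12.3, 13.4 and 14.3 CPM to 53.0, 71.8 and 84.2 CPM (log2 fold change 2.38, SE 0.205, adjusted p = 1.7e-05). *FLRT3*, a membrane protein that binds FGF receptors, went from 4.81, 4.08 and 5.12 CPM to 12, 20.3 and 24.1 CPM (log2 fold change 2.02, SE 0.322, adjusted p = 8.08e-04), and *FLRT1* and *FLRT2* were called higher as well.

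The list of intracellular FGF homologues, which bind sodium channels rather than receptors, had 2 tested genes of 4. *FGF12* rose in CTCFL-KD from 4.51, 4.66 and 5.27 CPM to 10.6, 12.7 and 13.3 CPM (log2 fold change 1.34, SE 0.246, adjusted p = 0.00185). *FGFBP3*, the only tested gene of 2 further carriers, went from 1.40, 1.17 and 1.47 CPM to 5.23, 3.09 and 3.40 CPM (log2 fold change 1.52, SE 0.285, adjusted p = 0.00208).

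Of 4 splicing regulators that act on *FGFR2* exon choice, 0 were called in either comparison. *ESRP1*, the epithelial regulator, had a log2 difference of -0.10 (SE 0.180, adjusted p = 0.696) and *ESRP2* one of 0.57 (SE 0.171, adjusted p = 0.0231) in CTCFL-KD. *PTBP1* had one of -0.74 (SE 0.171, adjusted p = 0.00628), and like *ESRP2* it passed the p threshold but not the fold threshold. Of *NUDT6*, *CEP43*, *FGFR1OP2*, *TACC3* and *SPATA5*, which overlap, lie near or are named like members, 0 were called against Control in either comparison.

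**Figure D4:**
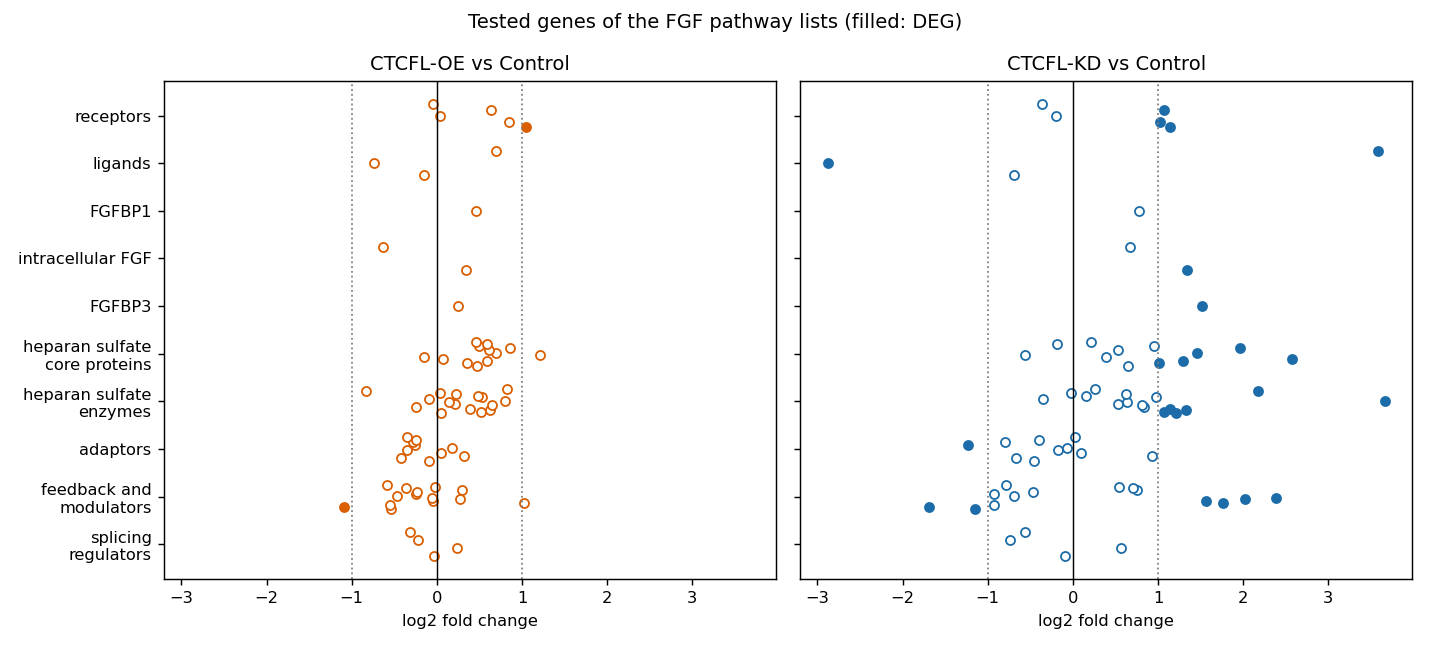
Each point is a tested gene of 1 list, plotted by its log2 fold change in CTCFL-OE (left) and CTCFL-KD (right), with dotted lines at the fold threshold and filled points for DEGs. On the right, 5 core proteins and 6 enzymes of heparan sulfate are filled and above 1, and on the left 2 points are filled, *FGFR1* and *ETV4*.

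In bulk RNA, fewer cells of a type and less RNA per cell cannot be told apart, so markers of other cells were read beside these values. The 10 fibroblast markers summed to 28.0 to 33.8 CPM in Control, 25 to 44.2 CPM in CTCFL-OE, against 37.8 to 43.0 CPM in CTCFL-KD. *COL1A1* made up most of the Control sum, with 32.0, 30.9 and 26.4 CPM in Control against 26.1, 22.4 and 21.3 CPM in CTCFL-KD (log2 difference -0.36, adjusted p = 0.221). *COL1A2* had 0 counts in every Control library and 14.1, 14.2 and 13.5 CPM in CTCFL-KD, and *COL3A1* had 0 counts in every Control library and 8, 9 and 8 counts in CTCFL-KD. *POSTN* had at most 5 counts in each Control library, against 9, 18 and 13 counts with knockdown (log2 fold change 2.74). Its counts with overexpression were at most 3. It passed the filter on low counts only through the knockdown libraries, so this value is a description and no test. *PDGFRA* and *THY1* had at most 3 counts in every CTCFL-KD library and at most 5 and 6 counts in Control. The 5 leukocyte markers summed to 0.551 to 0.855 CPM, 0.730 to 1.72 CPM and 2.56 to 4.51 CPM in the 3 groups, and *CD3E* and *CD68* had at most 3 counts throughout. The 4 endothelial markers summed to 8.05 to 9.09 CPM, 11 to 12 CPM and 11.1 to 19.9 CPM. Among them *KDR* was called higher (log2 fold change 2.73, adjusted p = 3.43e-04) and *PECAM1* lower (log2 fold change -2.56, adjusted p = 5.12e-04) in CTCFL-KD. Of the 9 ovarian and epithelial markers, 5 were called higher and 1 lower in CTCFL-KD, against 15.3% and 7.94% of all tested genes. *MUC16*, *EPCAM*, *KRT8*, *KRT18* and *MSLN* were higher, whereas *KRT7* was lower. The part of these shifts in the changes of the FGF genes was not tested.

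The genes whose profile over the 9 libraries was most like that of *FGFR1*, by Pearson's r of log2 CPM among 15370 genes, were *CILP* (0.981), *SEMA3F* (0.977) and *COL26A1* (0.976), and the most opposite was *CAST* (-0.977). For *FGF2* they were *PTPRB* (0.990), *GLIPR1* (0.990) and *PTGER2* (0.987), and the most opposite was *AIFM2* (-0.997). The 9 points form 3 treatment groups and are not independent. *FGFR1* had 165 genes at an r of at least 0.9, and *FGF2* had 790.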

How the data were processed

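RNA-seq of OVCAR3 cells covered Control, CTCFL-OE and CTCFL-KD with 3 libraries each, grouped by the labels. According to the study's methods, stranded mRNA libraries were sequenced paired-end, trimmed with Trimmomatic, aligned to GRCh38 with STAR and counted with featureCounts. The submitters' processing notes also list kallisto, without a role. The annotation release, strand setting and treatment of multi-mapping reads are not given in the sources used here. The authors deposited raw counts per gene, without normalization, and each library file equalled its column of the matrix. Library totals were 14332622 to 24490080.

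Symbols, positions and lengths were taken from GENCODE release 44 for 60419 of 60660 identifiers. Counts were filtered with filterByExpr (17794 genes), scaled by TMM and fitted over all 9 libraries with edgeR 4.0.16 (glmQLFit, robust, and glmQLFTest, R 4.3.3), and p-values were adjusted by Benjamini-Hochberg over all tested genes. The script was tested on simulated data. CPM and RPKM used TMM-scaled library sizes. The alternatives were DESeq2 1.42.0, a fit of the 2 groups compared, RLE scaling, no or a stricter filter, robust estimation off, a replicate block, offsets for a length and GC trend, and leaving out each library. DEG thresholds followed the study's methods.

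The members and lists were chosen with earlier results of these data known. Named were all members, genes that overlap them, up to 2 called genes a direction of each list with the largest change, and the 3 most alike and 1 most opposite genes for *FGFR1* and *FGF2*. *FLRT1*, *FLRT2*, the other called heparan sulfate genes, the untested ligands, *PTBP1*, the pathway genes named only for the direct comparison, *COL1A1*, *COL1A2*, *COL3A1*, *POSTN*, *PDGFRA*, *THY1*, *KDR* and *PECAM1* were named after their values were seen. Deviations from the group means were correlated between libraries with the same replicate number over 15371 genes. Between Control and CTCFL-KD the correlations were 0.251, 0.151 and 0.173, or 0.139, 0.105 and 0.122 with the length and GC trend removed. Between Control and CTCFL-OE they were -0.032, 0.188 and -0.047. Whether replicate numbers mark pairs was not tested. All printed values are from the fit without a block unless the block is named, and the block was fitted over all 9 libraries as an alternative. Replicates of each group differed beyond sampling noise.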

Additional observations from a re-analysis of the deposited data

Results flagged for a closer look

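For several genes the change in CTCFL-KD differed from that in CTCFL-OE by edgeR's quasi-likelihood test of the difference itself. Values are log2 differences of CTCFL-KD from CTCFL-OE, with a Benjamini-Hochberg adjusted p below 0.05 for the members and pathway genes. Among the members they were -2.14 for *FGF2* and 2.88 for *FGF9*. Of the 59 tested pathway genes outside the members, 15 were higher and 5 lower in CTCFL-KD than in CTCFL-OE, against 15.3% and 11.5% of all tested genes. *HS3ST5* passed the filter on low counts only through CTCFL-KD, so its value is a description. Among those named for their changes against Control the values were 1.0 for *FGF12*, 1.28 for *FGFBP3*, 2.5 for *GPC3*, 1.10 for *SDC1*, 2.86 for *HS3ST5*, 3.0 for *SULF1*, -0.98 for *PTPN11*, 2.44 for *IL17RD* and 1.75 for *FLRT3*. Of these, the adjusted p rose above 0.05 without CTCFL-OE replicate 2 for *FGF12* (0.0590) and *SDC1* (0.0560), and without CTCFL-OE replicate 1 or 2 for *PTPN11* (0.0734 and 0.0611). In a fit of the 2 groups compared it was 0.0833 for *PTPN11* and 0.0526 for *SDC1*. The others that passed with all libraries were *FLRT2* (1.61), *FGF13* (1.31), *EXT1* (1.17), *GLCE* (1.08), *SPRY2* (1.07), *EXTL3* (0.76) and *EXTL2* (0.71) on the higher side and *GPC5* (-1.77), *SPRED2* (-0.68), *SHC1* (-0.52) and *PTBP1* (-0.52) on the lower. The genes named for a profile like or opposite to that of *FGF2* were chosen on these same libraries, so their values are a description and no test. They were -1.89 for *PTPRB*, -2.72 for *GLIPR1*, -1.67 for *PTGER2* and 1.26 for *AIFM2*. *SULF1* was lower than Control in all 3 CTCFL-OE libraries and higher in all 3 CTCFL-KD libraries. Dixon's test was not run on single values, as each group has 3 libraries.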

How the results depend on the processing

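Over the log2 fold changes of members and named pathway genes in the 3 comparisons, 1023 of 1073 alternative values kept direction and side of the threshold, 30 lost the threshold, 8 gained it and 12 changed sign. *FGF9* in CTCFL-KD kept its call in every alternative, and so did *FGFR1*, whereas *FGF2* could not be tested with at least 10 counts in every library. The count of DEGs in CTCFL-OE was 835 in a fit of the 2 groups, 826 without a filter and 44 to 1184 when a library was left out. It was 1184 without CTCFL-OE replicate 1, 980 without CTCFL-KD replicate 1, 45, 61 and 44 without Control replicates 1 to 3, and 79 and 109 without CTCFL-OE replicates 2 and 3. Members called there were 0 with the length and GC trend removed, with or without the replicate block, where *FGFR1* was at 0.92 and 0.93, and 0 to 2 when a library was left out. Members called in CTCFL-KD were 3 without a filter, as *FGFR2* (0.95) and *FGFR4* (0.98) missed the fold threshold. In the direct comparison, called genes were 2668 in a fit of the 2 groups and 3181 to 7297 when a library was left out (7297 without CTCFL-KD replicate 1), and called members were 1 with at least 10 counts. The replicate block gave 302 DEGs in CTCFL-OE and 4027 in CTCFL-KD and changed no member's call. Signs changed only for values that did not pass. *FGFR3* in CTCFL-OE was -0.14 with the length and GC trend removed, -0.15 with the block as well, and -0.21 to 0.22 when a library was left out (-0.02 without Control replicate 2, -0.21 without CTCFL-OE replicate 3). Ranges without a library were also -0.33 to 0.098 for *FGFRL1* (positive without CTCFL-OE replicate 1 or 2), -0.098 to 0.495 for *FLRT3* (negative without CTCFL-OE replicate 3) and -0.22 to 0.30 for *GPC3* (negative without Control replicate 3, and -0.013 without CTCFL-OE replicate 2), all in CTCFL-OE. In the direct comparison they were -0.023 to 0.18 for *FGFR1* and -0.016 to 0.44 for *FGFR2* (negative without CTCFL-OE replicate 1) and -0.20 to 0.69 for *FGFBP1* (negative without CTCFL-KD replicate 1). Control levels per longest transcript were 11.2 (*FGFR1*), 8.72 (*FGFR2*), 5.68 (*FGFR3*), 11.6 (*FGFR4*) and 38.9 RPKM (*FGFRL1*). Beyond the altered lengths, filters and libraries themselves, the cause was not tested. Depth limits *FGF1* and the untested ligands.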
